A study of Mus musculus with 22 samples.

Results

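Glutathione reductase (Gsr) and 6 further antioxidant enzymes (Gpx1, Prdx5, Txnrd1, Txn1, Cat and Sod2) were followed through cells sorted as neutrophils from the terminal ileum of transplanted mice. The 7 genes were chosen by name, with earlier group levels of these libraries known, and all 7 had rows among the 23091 genes of the count tables. Cells were selected on measured totals: a barcode with at least 500 transcripts was kept as a cell, which left 1383 of 4224 barcodes. Within the kept cells, 688 were selected on at least 5 transcripts of S100a8 and S100a9 together, which are abundant calprotectin transcripts of neutrophils, and on at most 2 transcripts of C1qa, C1qb and C1qc together, which are complement transcripts typical of tissue macrophages. These are called S100 cells here, and the totals, S100a8, S100a9 and C1q transcripts that chose them are no results.

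The study asked how intestinal neutrophils differ in acute graft-versus-host disease (aGVHD), in which donor T cells attack tissues of the transplant recipient. In the aGVHD group, BALB/c recipients of 7 to 9 weeks received 5 Gy in each of 2 irradiations, then 5000000 bone marrow cells together with 400000 T cells from C57BL/6 donors, and ileum was taken on day 21. In the control group, recipients were irradiated in the same way and given the bone marrow cells alone, so that both groups carried a donor bone marrow graft in irradiated hosts. The donors were given as C57BL/6N females of 7 to 10 weeks. The gate was CD45+H2kb+CD11b+Ly6G+, where H2kb marks donor-derived cells and Ly6G marks neutrophils, and libraries were made by CEL-Seq2, a plate method that counts transcript 3' ends by molecular identifiers. There were 12 aGVHD and 10 control libraries of 192 barcodes each. The labels do not say which mouse a library came from, so the p-values rest on library-to-library spread, part of which may be technical. The number of mice is thus not known, and some libraries may share a mouse. In that case the libraries are not independent replicates, and the p-values are too small.

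Gsr uses NADPH to return oxidised glutathione to its reduced form. Gpx1, glutathione peroxidase, oxidises glutathione as it removes hydrogen peroxide, so the pair forms a cycle. A parallel cycle runs through thioredoxin (Txn1), which thioredoxin reductase (Txnrd1) reduces with NADPH and which peroxiredoxins such as Prdx5 use to remove peroxides. Catalase (Cat) breaks down hydrogen peroxide without either carrier, and Sod2 turns superoxide into hydrogen peroxide in mitochondria. Neutrophils release superoxide through the NADPH oxidase when they take up microbes, and the glutathione cycle is known for sustaining that burst and protecting the cell during it.

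Levels are given as CPM, the transcripts of a gene divided by all named-gene transcripts in the same cells of a library and scaled to the usual CPM total. Kept cells numbered 74 to 95 per aGVHD library and 11 to 60 per control library, and held 69287 to 239197 named-gene transcripts per aGVHD library, against 9180 to 134909 per control library. Numbered gene models took a mean of 49.9% of transcripts in aGVHD libraries and 51.1% in control libraries. They were left out of CPM and tests, but were counted in totals per cell and in thinning. S100 cells made up 564 of 1025 kept cells (55.0%) in the aGVHD group, against 124 of 358 (34.6%) in the control group. Over all kept cells, the summed level of 15 neutrophil markers ran from 17675 to 84115 CPM in aGVHD libraries, against 7355 to 21957 CPM in control libraries. Within S100 cells that sum, which includes S100a8 and S100a9, ran from 29117 to 104529 CPM in aGVHD libraries, against 19661 to 38649 CPM in control libraries, and all 15 markers were detected in both groups. The sum of 12 macrophage markers in S100 cells had a median of 804 CPM in aGVHD libraries and 586 CPM in control libraries, with C1qa, Mrc1 and Trem2 at 0 in the control group. This sum includes C1qa, C1qb and C1qc, which the S100 rule held to at most 2 transcripts per cell, so it is partly fixed by that rule. The sum of 10 epithelial markers in S100 cells had a median of 243 CPM in aGVHD libraries and 2596 CPM in control libraries, and reached 57981 CPM in 1 of the control libraries. The 6 B-cell and plasma-cell markers summed to at most 38336 CPM in S100 cells of aGVHD libraries and 48764 CPM in those of control libraries, with medians of 28.1 and 174 CPM in the same order. Dendritic markers, 7 in all, summed in S100 cells to a median of 248 CPM in aGVHD and 479 CPM in control libraries, with Flt3 and Zbtb46 at 0 in the control group. In all kept cells the medians were 371 CPM in aGVHD and 919 CPM in control libraries for dendritic markers, and 251 CPM in aGVHD and 1665 CPM in control libraries for epithelial markers. The part of these markers in the results below was not tested.

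Gsr was higher in the aGVHD group over all kept cells. Its level had a lowest value of 375 CPM, a median of 557 CPM and a highest value of 733 CPM over the aGVHD libraries, against a lowest of 107 CPM, a median of 252 CPM and a highest of 394 CPM over the control libraries. Of the 12 aGVHD libraries, 11 lay above every control library. Only aGVHD replicate 5 fell inside the control range, below control replicate 10, which rested on 6 Gsr transcripts in 11 cells. The share of all genes tested with such a separation is not given here. The Gsr means were 555 ± 91.7 CPM in aGVHD libraries and 260 ± 81.7 CPM in control libraries (SD, n = 12 and 10). The log2 fold change was 0.97 (SE 0.16, limma with Benjamini-Hochberg adjustment over 1756 genes, adjusted p = 0.0021), and Gsr had the smallest p of all genes tested. Of those 1756 genes, 7.97% passed an adjusted p of 0.05, 67 higher and 73 lower in aGVHD libraries, and of the 6 antioxidant enzymes tested 2 passed, Gsr and Prdx5. As the enzymes were picked with earlier group levels known, their calls are not independent evidence. In bulk sums such as these, more cells rich in a transcript and more of the transcript per cell cannot be told apart, and the share of S100 cells above moved with the same groups. The mitochondrial share of named transcripts moved too, at 10.4% ± 3.34 in aGVHD and 14.7% ± 2.95 in control libraries over all kept cells, and 10.96% ± 3.79 in aGVHD and 17.2% ± 3.69 in control libraries in the kept cells that are not S100 cells (SD, n = 12 and 10). In S100 cells that share averaged 9.43% over the 12 aGVHD libraries and 9.43% over all 10 control libraries. Among the latter, the 3 libraries with 2 or 3 S100 cells were low, at 5.80%, 5.39% and 5.42%. The 7 control libraries with at least 5 S100 cells ran from 6.72% to 14.97%, against 3.75% to 18.88% in aGVHD libraries. The part of the mitochondrial share in the result was not tested. Among libraries with at least 20 kept cells, which leaves out 4 control libraries, 3 of 2310 genes passed, Gsr among them (log2 fold change 0.94, limma adjusted p = 0.011).

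**Figure D1:**
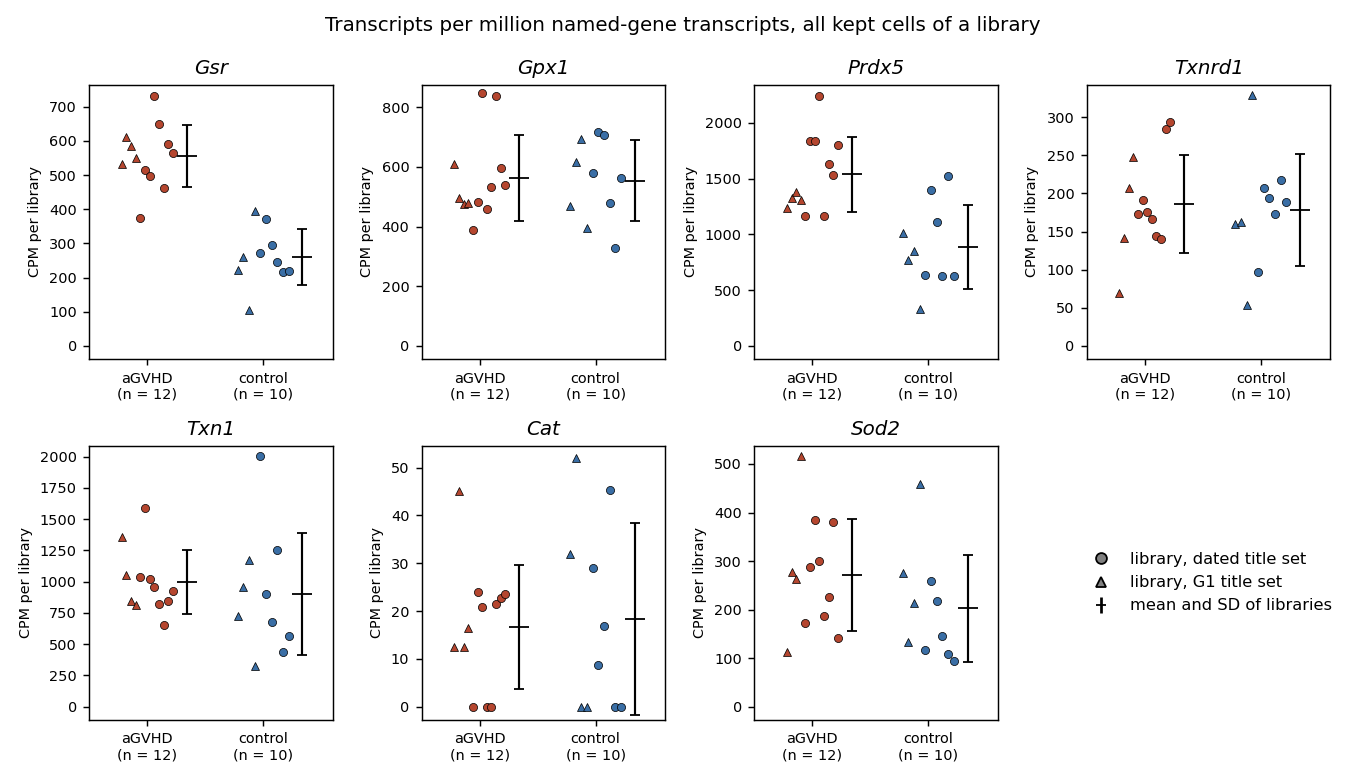
Level of each antioxidant enzyme in all kept cells, in CPM on the vertical axis, with 1 point per library, aGVHD left and control right, the title set as the marker shape, and the mean with SD beside the points. Gsr and Prdx5 points sit higher in the aGVHD group, with means of 555 and 260 CPM for Gsr, while the points of the other 5 genes overlap widely.

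Both title sets showed the Gsr difference. The library titles fall into a set marked G1 and a set marked by a date-like number, which is the nearest thing to a batch in the labels and was a term of the fits. In the G1 set, Gsr averaged 570 ± 35.5 CPM in aGVHD libraries and 246 ± 118 CPM in control libraries (SD, n = 4 each). In the dated set, it averaged 548 ± 112 CPM in aGVHD libraries and 270 ± 57.8 CPM in control libraries (SD, n = 8 and 6). The fold changes within the sets were 1.34 in the G1 set (limma adjusted p = 0.077) and 0.81 in the dated set (limma adjusted p = 0.043) on the log2 scale. The difference between the 2 effects, 0.50 (SE 0.33, limma adjusted p = 0.89), did not pass.

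Within S100 cells the groups did not overlap for Gsr. The aGVHD libraries had a lowest level of 487 CPM, a median of 696 CPM and a highest level of 902 CPM, against a lowest of 243 CPM, a median of 385 CPM and a highest of 434 CPM in the 7 control libraries with at least 5 S100 cells. All 12 aGVHD libraries thus lay above all 7 control libraries. The share of all genes tested that separate in this way is not given here, so how unusual it is cannot be told. The Gsr means were 680 ± 121 CPM in aGVHD and 361 ± 63.2 CPM in control libraries (SD). The log2 fold change was 0.79 (SE 0.17), with an unadjusted p of 8.5e-05 that was the smallest of 871 genes tested and a limma adjusted p of 0.074, which missed the threshold. In that comparison 0% of the genes passed, and 112 had an unadjusted p under 0.05. The limma adjusted p was 0.033 when the control libraries with 2 or 3 S100 cells were taken in and 0.035 with aGVHD replicate 6 left out. It was 0.235 when control replicate 7 was left out, the library with the lowest Gsr level. Those 3 small control libraries held 1, 1 and 0 Gsr transcripts in S100 cells. By title set, Gsr averaged 697 ± 90.1 CPM in aGVHD and 324 ± 115 CPM in control libraries of the G1 set (SD, n = 4 and 2). For the dated set the means were 671 ± 139 CPM in aGVHD and 376 ± 41.5 CPM in control libraries (SD, n = 8 and 5). Groups that do not overlap over all libraries cannot overlap within a set, so the sets add no support on that point.

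**Figure D2:**
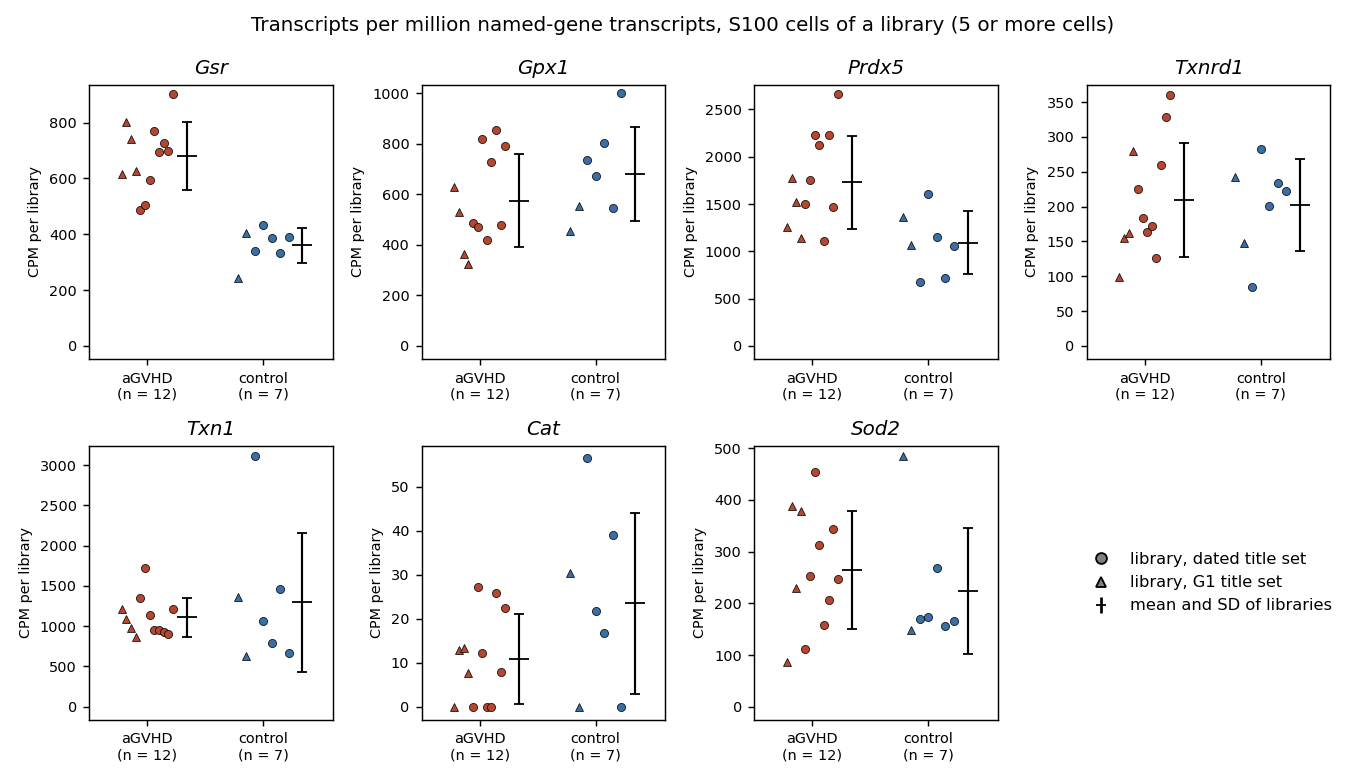
Level of each antioxidant enzyme in S100 cells, in CPM on the vertical axis, with 1 point per library with at least 5 S100 cells, aGVHD left and control right, the title set as the marker shape, and the mean with SD beside the points. Among these enzymes, Gsr is the gene whose aGVHD points, from 487 to 902 CPM, all sit above its control points, from 243 to 434 CPM. The share of all genes tested that separate in this way is not given.

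The Gsr transcripts were spread over many S100 cells. At least 1 was seen in 350 of 564 S100 cells of aGVHD libraries (62.1%, exact 95% interval 57.9% to 66.1%), against 55 of 124 S100 cells of control libraries (44.4%, 35.4% to 53.5%), although the median total per cell was 2453.5 transcripts in aGVHD and 2777.5 in control S100 cells. At least 2 were seen in 179 of the aGVHD cells and 23 of the control cells, and no cell held more than 10. After each cell was thinned to 500 transcripts, 20.6% of aGVHD S100 cells (17.3% to 24.1%) and 14.5% of control S100 cells (8.84% to 21.97%) kept a Gsr transcript, and these intervals overlap. Thinned to 1000 transcripts, which leaves out shallower cells, the shares were 33.7% of 528 aGVHD cells (29.7% to 37.9%) and 14.9% of 114 control cells (8.93% to 22.8%). The intervals cover counting error only and treat cells of 1 library as independent. Cells with at least 5 C1q transcripts, at medians of 8052.5 transcripts in aGVHD and 10184.5 in control libraries, held a Gsr transcript in 22 of 32 cells (68.8%) and 8 of 20 cells (40.0%), but after thinning to 500 in 1 of 32 (3.12%, exact interval to 16.2%) and 0 of 20 (0%, exact interval to 16.8%). In the barcodes below 500 transcripts, which were not kept as cells, Gsr averaged 88.0 ± 109 CPM in aGVHD libraries and 175 ± 167 CPM in control libraries (SD, n = 12 and 10), on 13 and 23 transcripts.

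Gsr levels ordered the kinds of cell in the same way in both groups. S100 cells of aGVHD libraries came first at 680 ± 121 CPM. The kept cells that are not S100 cells followed in the aGVHD group at 388 ± 125 CPM (n = 12), next to S100 cells of control libraries at 361 ± 63.2 CPM (n = 7), and these neighbours differ by less than their spread. Then came the other kept cells of control libraries at 206 ± 131 CPM (n = 10) and cells with at least 5 C1q transcripts, called C1q cells here, of aGVHD libraries at 203 ± 164 CPM (n = 11), which also differ by less than their spread. C1q cells of control libraries were lowest at 63.7 ± 71.8 CPM (n = 9, 14 transcripts in 20 cells). Near the lower limit of the S100 rule, 125 S100 cells with 5 to 7 S100a8 and S100a9 transcripts had a pooled 597 CPM of Gsr, and 238 cells just outside it with 2 to 4 such transcripts had 444 CPM. In the kept cells that are not S100 cells, the difference between groups was 0.76 on the log2 scale (SE 0.28, limma adjusted p = 0.17), which did not pass.

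Gpx1, which spends the glutathione that Gsr restores, gave no call in either set of cells. Over all kept cells Gpx1 ran from 390 CPM through a median of 515 CPM to 849 CPM in aGVHD libraries, against 327 CPM, 573 CPM and 717 CPM in control libraries, and the groups overlapped. The log2 fold change was -0.12 (SE 0.16, limma adjusted p = 0.71). In S100 cells the range was 325 to 855 CPM with a median of 509 CPM in aGVHD libraries, against 455 to 999 CPM with a median of 672 CPM in control libraries. The log2 fold change there was -0.35 (SE 0.21, limma adjusted p = 0.45).

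In the thioredoxin cycle, the reductase Txnrd1 gave no call. Over all kept cells Txnrd1 ran from 69.0 to 294 CPM with a median of 174 CPM in aGVHD libraries, against 53.3 to 328 CPM with a median of 180 CPM in control libraries. The ranges overlap, and the log2 fold change was -0.0049 (SE 0.23, limma adjusted p = 0.995), with a sign that turned under library totals and median-of-ratios scaling. In S100 cells Txnrd1 had a lowest level of 98.8 CPM, a median of 178 CPM and a highest of 361 CPM in aGVHD libraries, against 84.7, 222 and 282 CPM in control libraries, a difference of -0.14 on the log2 scale (SE 0.28, limma adjusted p = 0.85). Txnrd1 and Gsr do the same work for thioredoxin and for glutathione, and the share of Gsr among the transcripts of both genes needs no scaling between libraries. That share, chosen after its values were seen and not tested, averaged 75.1% ± 7.02 in aGVHD libraries (n = 12) and 60.2% ± 6.86 in control libraries (n = 10) over all kept cells (SD). In S100 cells it averaged 76.7% ± 6.82 in aGVHD libraries and 64.6% ± 9.84 in control libraries (SD, n = 12 and 7), and the ranges of 67.9% to 86.2% and 50% to 80% overlap.

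Thioredoxin itself, Txn1, was variable. Over all kept cells it ran from 656 CPM through a median of 944 CPM to 1590 CPM in aGVHD libraries, against 328 CPM, 810 CPM and 2004 CPM in control libraries. The control range thus contains the aGVHD range, and the log2 fold change was 0.10 (SE 0.24, limma adjusted p = 0.85). In S100 cells it was -0.13 (SE 0.26, limma adjusted p = 0.86), and the highest control level, 3107 CPM in control replicate 1, came largely from 1 cell with 100 of the 110 Txn1 transcripts there. Without that library the log2 fold change of Txn1 in S100 cells was 0.10, with the opposite sign.

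Prdx5, a peroxiredoxin that draws on thioredoxin, was the other enzyme that rose. Over all kept cells it ran from 1169 CPM through a median of 1456 CPM to 2244.5 CPM in aGVHD libraries, against 328 CPM, 812 CPM and 1525 CPM in control libraries. All 12 aGVHD libraries lay above the control mean of 889 ± 374 CPM (SD, n = 10), and 6 of them lay above the highest control library, which was replicate 5 with 14 Prdx5 transcripts in 12 cells. The aGVHD mean was 1539 ± 336 CPM (SD, n = 12), and the log2 fold change was 0.78 (SE 0.17, limma adjusted p = 0.0099). The call was lost in each title set alone (G1 0.91, limma adjusted p = 0.28, and dated 0.76, adjusted p = 0.068), in libraries with at least 20 kept cells (0.71, adjusted p = 0.067), and without cells of doubtful quality, which have over 4 times the median total of their library or over 2% of Kcnq1ot1 (0.53, adjusted p = 0.092). It was lost too in the dated libraries numbered 1 to 6, at 0.71 with the replicate block (limma adjusted p = 0.13) and 0.70 without it (adjusted p = 0.12), and in the kept cells that are not S100 cells. The direction was the same in all 7 of these, which are among 14 alternatives.

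In S100 cells Prdx5 ran from 1105 CPM through a median of 1636 CPM to 2660 CPM in aGVHD libraries, against 678 CPM, 1069 CPM and 1605 CPM in control libraries. The upper 6 aGVHD libraries lay above all control libraries, and the difference, 0.58 on the log2 scale (SE 0.18, limma adjusted p = 0.23), did not pass. The 3 control libraries with 2 or 3 S100 cells, which stayed out of that fit, had 3055, 2762 and 1221 CPM of Prdx5 there on 8, 6 and 3 transcripts, so that the highest Prdx5 levels in S100 cells were in control libraries. The share of S100 cells with a Prdx5 transcript after thinning to 500 differed between aGVHD and control libraries by a mean of -1.17 points, with a control SD of 21.9 points. In the kept cells that are not S100 cells it was 0.94 (SE 0.30, limma adjusted p = 0.12). Exons of Trmt112 lie on the opposite strand over Prdx5 exons in the GENCODE vM21 annotation of GRCm38. The sources used here do not say whether counting used strand, so reads of the pair cannot be told apart, although Trmt112 had 97 transcripts in kept aGVHD cells and 51 in kept control cells, against 2680 and 683 of Prdx5.

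The promoter windows of Prdx5, the member that rose and has an entry, and of Txnrd1, the member with a motif match, were read from the RefSeq-derived table of GRCm38.p6, which holds 250 bases before to 50 after a gene start on the strand of the gene. The antioxidant response element, the site that the stress factor NRF2 is known to bind, was searched as TGACNNNGC on both strands, with the match in capitals.
Prdx5, chr19:6910057-6910356, minus strand: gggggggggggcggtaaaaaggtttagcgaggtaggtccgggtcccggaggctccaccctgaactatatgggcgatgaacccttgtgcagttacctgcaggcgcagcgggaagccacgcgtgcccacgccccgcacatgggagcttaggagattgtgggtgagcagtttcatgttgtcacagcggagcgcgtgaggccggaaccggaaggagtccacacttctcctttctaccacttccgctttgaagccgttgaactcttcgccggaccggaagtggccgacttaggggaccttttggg
Txnrd1, chr10:82858956-82859255, plus strand: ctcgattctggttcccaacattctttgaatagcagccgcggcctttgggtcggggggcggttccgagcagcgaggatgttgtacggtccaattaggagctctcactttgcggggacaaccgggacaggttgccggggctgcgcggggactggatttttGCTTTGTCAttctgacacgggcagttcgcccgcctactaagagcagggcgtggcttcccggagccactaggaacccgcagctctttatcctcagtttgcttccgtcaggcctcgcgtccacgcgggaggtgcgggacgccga
Table entries matched 6 of the 7 genes in 8 windows, with none for Gsr. The letters were found in 1 of the 8 windows, this window of Txnrd1, and in 12.39% of all 32851 windows of the table. The match is a description of letters in this window.

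Sod2, the mitochondrial superoxide dismutase, ran from 113 CPM through a median of 270.4 CPM to 516 CPM over all kept cells of aGVHD libraries, against 94.0 CPM, 179 CPM and 460 CPM in control libraries. The ranges overlap, and the log2 fold change was 0.41 (SE 0.27, limma adjusted p = 0.36). In S100 cells it was 0.20 (SE 0.34, limma adjusted p = 0.82). Cat was close to the limit of detection, with 31 transcripts in all kept cells of the aGVHD group and 21 in those of the control group. It was at 0 in 3 of 12 aGVHD and 4 of 10 control libraries, averaged 16.6 ± 12.98 CPM in aGVHD libraries and 18.4 ± 19.99 CPM in control libraries (SD), and did not pass the low-count filter. No difference in Cat was detectable at this depth.

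**Figure D3:**
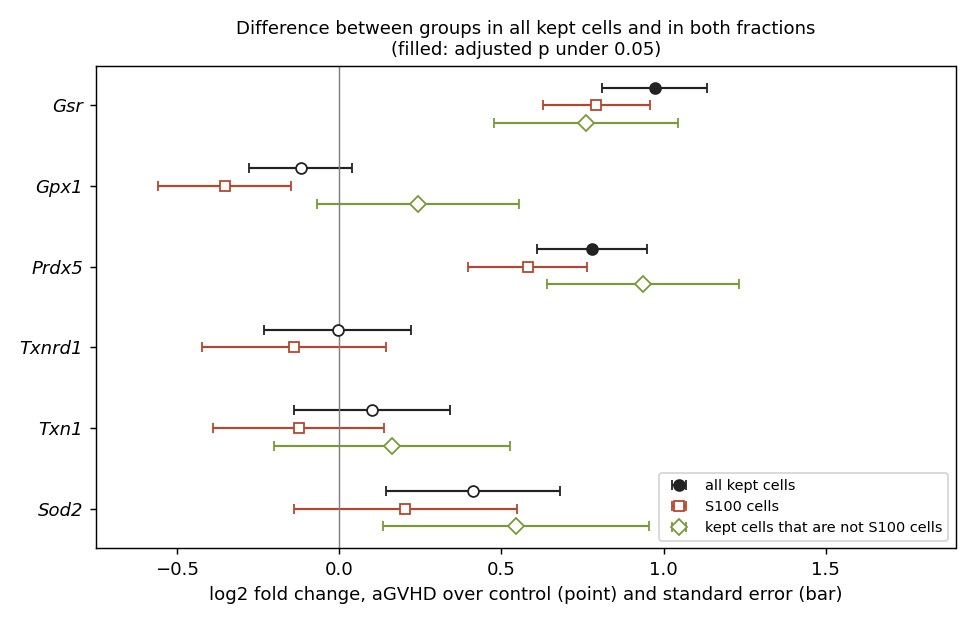
Log2 fold change of each tested enzyme, aGVHD over control, on the horizontal axis, with its standard error as the bar, for all kept cells (circles), S100 cells (squares) and the kept cells that are not S100 cells (diamonds). Filled symbols passed an adjusted p of 0.05. Gsr and Prdx5 sit right of 0 in all 3 sets of cells, from 0.58 to 0.97, and neither Gsr nor Prdx5 is filled outside all kept cells. Cat, and Txnrd1 in the kept cells that are not S100 cells, are missing because they fell below the low-count filter.

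Among the kinds of cell, Gsr was higher and Gpx1 lower in S100 cells than in C1q cells. The comparison used 10 libraries with at least 3 cells of each kind, 372 S100 cells and 37 C1q cells, with the library as a block. The 12 macrophage markers in C1q cells summed to a median of 10844 CPM in aGVHD and 11047 CPM in control libraries, in spite of the Ly6G gate. That sum includes C1qa, C1qb and C1qc, which chose these cells, so its height was partly fixed by the rule. Gsr was higher in S100 cells in 10 of 10 libraries, ranging from 243 to 803 CPM in S100 cells and from 40.2 to 517 CPM in C1q cells, where it rested on 47 transcripts. Its log2 fold change was 1.51 (SE 0.29, limma adjusted p = 0.00023). Gsr met the low-count filter almost only through S100 cells. Among C1q cells, only those of aGVHD replicate 9 reached the level of that filter, on 3 transcripts. The call is thus not independent of where Gsr was high. Gpx1 was higher in S100 cells in only 2 of the 10 libraries, at 325 to 817 CPM in S100 cells and 517 to 1269 CPM in C1q cells, a difference of -0.87 on the log2 scale (SE 0.22, limma adjusted p = 0.0019). Of 474 genes tested, 56.8% passed, so that a pair of calls among the 4 enzymes tested is near the background.

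Prdx5, at 0.46 (SE 0.28, limma adjusted p = 0.16), and Txn1, at 0.59 (SE 0.29, limma adjusted p = 0.091), did not pass between these kinds of cell. Txnrd1, Sod2 and Cat fell below the low-count filter. The median total per cell was 2453.5 transcripts in aGVHD and 2777.5 in control S100 cells, against 8052.5 in aGVHD and 10184.5 in control C1q cells, and the part of that gap in the result was not tested. Neutrophil markers were present in C1q cells too, summed to a median of 5356 CPM in aGVHD and 1831 CPM in control libraries. Leaving out cells of doubtful quality left 3 libraries, in which Gsr fell below the low-count filter and Gpx1 did not pass (-0.90, limma adjusted p = 0.28). Gpx1 also did not pass with no low-count filter (-0.26, limma adjusted p = 0.57).

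**Figure D4:**
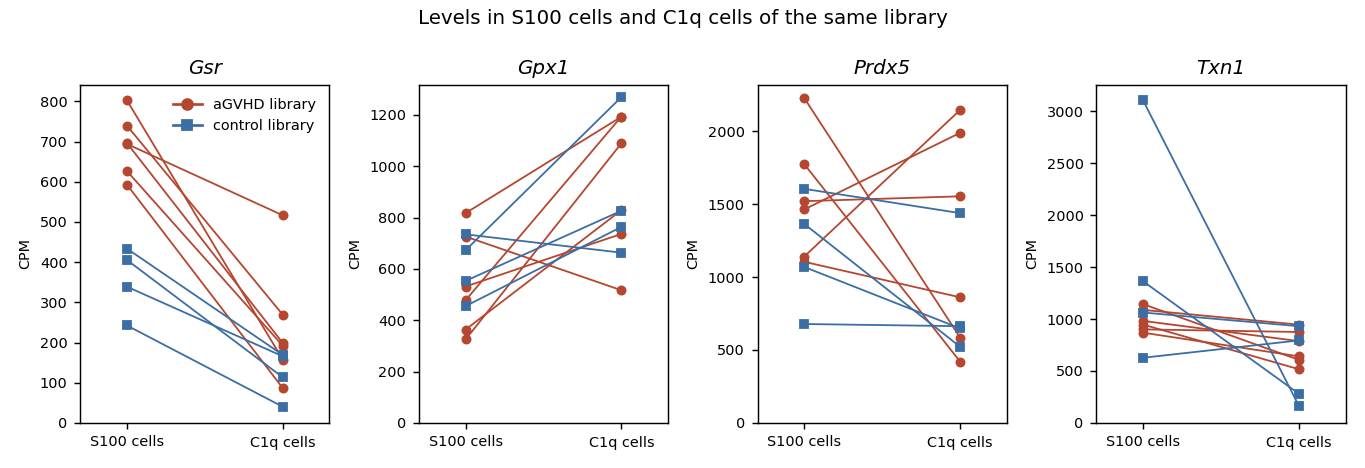
Level in CPM of 4 enzymes in S100 cells, left, and in C1q cells, right, with a line for each of the 10 libraries that held at least 3 cells of each kind, coloured by group. Every Gsr line falls from S100 cells to C1q cells, 8 of 10 Gpx1 lines climb, 9 of 10 Txn1 lines fall, and Prdx5 lines go both ways.

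Along granule gene expression within S100 cells, no enzyme passed the test. Ngp, Ltf and Camp encode secondary granule proteins that neutrophils make before they leave the marrow, and 13 S100 cells, none of them in control libraries, held at least 3 of their transcripts after thinning to 500. The comparison rested on aGVHD replicates 6 and 7, with 5 and 6 positive cells against 54 and 59 cells without such transcripts. Gsr was at 660 CPM in positive cells and 463 CPM in negative cells of replicate 6, and at 547 CPM in positive cells and 605 CPM in negative cells of replicate 7. The directions were opposite, and the log2 fold change was 0.52 (SE 0.35, limma adjusted p = 0.35). Txnrd1 was at 110 CPM in positive cells and 210 CPM in negative cells of replicate 6, and at 0 in positive cells and 205 CPM in negative cells of replicate 7. It was thus lower in positive cells of both libraries, on 2 transcripts in positive cells, and did not pass (limma adjusted p = 0.26). Txnrd1 met the low-count filter through the negative cells alone, so its direction is not independent of where it was high. Of 1144 genes 12.8% passed, and 0 of the 6 enzymes tested did. With both libraries left out, the difference of Gsr between groups in S100 cells was a log2 fold change of 0.87 (limma adjusted p = 0.058).

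Further genes of these pathways were read from 6 lists of 70 genes in all. Over all kept cells 27 passed the low-count filter, 1 rose and 0 fell, which is 3.7% called against the 7.97% called over all genes tested. Their median log2 fold change was 0.22, against 0.01 over all genes tested, and 77.8% of them lay above 0, against 51.7% of all genes tested. In S100 cells 20 passed the filter, 0 were called, and the median was 0.10 against 0.03 over all genes. The called gene was Msrb1, a methionine sulfoxide reductase that draws on thioredoxin and is also among the 15 neutrophil markers. It had a lowest level of 565 CPM, a median of 849 CPM and a highest level of 1058 CPM in aGVHD libraries, against 349 CPM, 552 CPM and 871 CPM in control libraries. These ranges overlap, and the log2 fold change was 0.54 (SE 0.16, limma adjusted p = 0.032), while in S100 cells it was 0.31 (SE 0.18, limma adjusted p = 0.45). Its limma adjusted p was 0.05046 with aGVHD replicate 4 left out, 0.084 with control replicate 1 left out, 0.0545 with control replicate 4 left out and 0.0567 with control replicate 8 left out, so that the Msrb1 call was lost in each. It was also lost in 7 of 14 other alternatives, with limma adjusted p up to 0.69 in the G1 set and the smallest log2 fold change, 0.24, without cells of doubtful quality.

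In the glutathione list, 6 of 20 genes passed the filter over all kept cells, and 0 were called. Its members of highest CPM in S100 cells were Slc7a11, the cystine importer, Glrx, a glutaredoxin, and Mgst1, a microsomal glutathione transferase. Glrx averaged 207 ± 92.8 CPM in aGVHD libraries and 129 ± 91.7 CPM in control libraries (SD, n = 12 and 10), a difference of 0.80 on the log2 scale (SE 0.27, limma adjusted p = 0.067). Slc7a11 averaged 367 ± 142 CPM in aGVHD libraries and 307 ± 115 CPM in control libraries, and Mgst1 averaged 131 ± 49.2 CPM and 103 ± 123 CPM in the same order (SD). In the thioredoxin list, 4 of 16 genes were tested and Msrb1 was called. Txnip, the thioredoxin-binding inhibitor, averaged 764 ± 338 CPM in aGVHD libraries and 418 ± 200 CPM in control libraries (SD, log2 fold change 0.74, SE 0.25, limma adjusted p = 0.066). Prdx1, another peroxiredoxin, averaged 259 ± 64.0 CPM in aGVHD libraries and 406 ± 276 CPM in control libraries (SD), and did not pass.

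NADPH, which Gsr and Txnrd1 consume, comes largely from the pentose phosphate pathway. Of 11 genes in the NADPH list 4 were tested over all kept cells, and 0 were called. Taldo1, transaldolase, averaged 583 ± 178 CPM in aGVHD libraries and 487 ± 105 CPM in control libraries (SD). Nadk, the kinase that makes NADP, averaged 253 ± 83.6 CPM in aGVHD libraries and 181 ± 70.5 CPM in control libraries (SD). Tkt, transketolase, averaged 210 ± 115 CPM in aGVHD libraries and 253 ± 134 CPM in control libraries (SD). Each of the 3 overlaps between groups.

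The NRF2 response list had 7 of 17 genes tested and 0 called. Nfe2l2, which encodes NRF2, averaged 712 ± 195 CPM in aGVHD libraries and 691 ± 293 CPM in control libraries (SD). Of the ferritin chains, Fth1 averaged 6791 ± 1852 CPM in aGVHD libraries and 4523 ± 1198 CPM in control libraries (SD, log2 fold change 0.54, SE 0.18, limma adjusted p = 0.056), and Ftl1 averaged 1464 ± 307 CPM and 1210 ± 583 CPM in the same order (SD). Of 7 genes of the oxidant source, the NADPH oxidase and myeloperoxidase, 6 were tested and 0 called, with log2 fold changes all above 0 and a median of 0.35. Ncf1, an organising subunit of the oxidase, averaged 1082 ± 255 CPM in aGVHD libraries and 913 ± 317 CPM in control libraries (SD). The GTPase Rac2, which the oxidase needs, averaged 642 ± 241 CPM in aGVHD libraries and 430.3 ± 202 CPM in control libraries (SD). Of the 3 further superoxide genes, Sod1 alone was tested, at 170 ± 60.6 CPM in aGVHD libraries and 233 ± 120 CPM in control libraries (SD, log2 fold change -0.56, SE 0.27, limma adjusted p = 0.21).

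Between the kinds of cell, 12 list genes were tested and 8 passed, 6 higher and 2 lower in S100 cells than in C1q cells, against a background of 56.8%. Higher were Txnip at a log2 fold change of 1.89, the oxidase subunit Ncf1 at 1.67, Msrb1 at 1.45, Taldo1 at 0.88, Nfe2l2 at 0.86 and Rac2 at 0.83. Lower were Cybb at -2.01 and Cyba at -0.86, the membrane subunits of the NADPH oxidase, named here after their values were seen. Their limma adjusted p ran up to 0.012. The low-count filter could be met through 1 kind of cell alone, so these calls are not independent of where a gene was high. Msrb1 lost its call in 2 of 11 alternatives other than single libraries left out (limma adjusted p up to 0.42). Cyba lost its call in 2 of 10 (adjusted p up to 0.46), Ncf1 in 1 of 11 (up to 0.088) and Rac2 in 1 of 10 (up to 0.11). Txnip and Cybb kept theirs. Between granule-gene-positive and negative S100 cells, 25 list genes were tested and 7 passed (28%), all higher in positive cells, against 12.8% of all genes tested, 108 higher and 38 lower. They include Tkt at 2.58 (SE 0.33, limma adjusted p = 0.0047) and Glrx at 1.61 (SE 0.37, limma adjusted p = 0.035), and, named after their values were seen, G6pdx, Pgd, Cybb, Cyba and Ncf4. That result rests on 11 positive cells of 2 libraries, and 0 list genes passed with numbered gene models kept or with no low-count filter. The positive cells alone could carry a gene past the low-count filter, so these calls are not independent of where a gene was high. Glrx lost its call in 6 of 12 alternatives, with limma adjusted p up to 0.30, and Tkt in 3 of 12, with adjusted p up to 0.19.

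The genes whose library-to-library variation was most like that of Gsr were found by Pearson's r of log2 CPM over the 22 libraries, after removing group and title set means, among the 1755 other genes tested. They were Zmat2 (r = 0.80), Top1 (0.79), Pds5a (0.78), Srsf5 (0.77) and Minos1 (0.76), none of which passed the test between groups. Of the other enzymes, Txnrd1 came highest at r = 0.55, in place 104, and Prdx5 had r = -0.13, in place 1215. These values share libraries and depth and are a description.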

How the data were processed

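Single cells sorted from terminal ileum, as 4 cm segments per the labels' protocols, were profiled by CEL-Seq2 in 22 libraries. The authors deposited unscaled transcript counts per gene and barcode. All 1419098 values above 0 equal a whole number of identifiers out of 4096 corrected for collisions (tolerance 1e-06), and they were rounded to whole transcripts. The submitters' processing notes name bcl2fastq 2.17.1.14 and BWA 0.6.2-r126, and the counting tool and genome build are not given in the sources used here. Of 23091 rows, 4609 numbered gene models and clone names counted toward the 500-transcript minimum but were left out of CPM and tests.

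Transcripts were summed per library and kind of cell. limma 3.58.1 in R 4.3.3 was fitted to all named genes with at least 10 transcripts at the median library and 15 in all, with voom weights and trimmed-mean scaling (0.3 of ratios, 0.05 of levels), and with title set or library as a term. CPM are unscaled, log2 fold changes are scaled. The fit was checked on simulated data with 200 changed genes. Python 3.11.15, numpy 2.4.6, scipy 1.17.1, pandas 2.3.3 and matplotlib 3.10.9 did the rest, with exact (Clopper-Pearson) intervals at 95%. The members, lists and kinds of cell were chosen with earlier results of these data known. Genes named were the 7 members, list genes past an adjusted p of 0.05 between groups (up to 5 per list), the 3 list genes of highest CPM in S100 cells, and the 5 most like Gsr. One gene that this rule names is not reported here. No doublet caller was run. Barcodes are numbered within each table, so sharing between libraries could not be counted, and 0 cell profiles were identical. Alternatives changed the cell minimum, cell rules, filter, scaling, weights, gene models, title set and libraries.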

Additional observations from a re-analysis of the deposited data

Results flagged for a closer look

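Each of the 7 genes was screened in all kept cells and in S100 cells of control libraries. In 3 of these sets 1 library stood far from the others, a pattern that chance gives in about 1 in 20 groups. The sets are not independent, as S100 cells are part of all kept cells. Txn1 in S100 cells of control replicate 1 was at 3107 CPM, against 1464 CPM in the next library, with 110 transcripts in 11 cells, 100 of them in 1 cell. Sod2 in all kept cells of control replicate 10 was at 460 CPM (459.6), against 276 CPM in the next library, on 7 transcripts in 11 cells. Sod2 in S100 cells of control replicate 7 was at 485 CPM, against 268 CPM in the next library, with 16 transcripts in 17 cells, 9 of them in 1 cell.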

How the results depend on the processing

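Gsr over all kept cells kept its direction in all 14 alternatives and in all 22 fits without 1 library (0.94 to 1.08 on the log2 scale), and passed in 10 and 22 of them. It did not pass in the G1 set (1.34, limma adjusted p = 0.077) or in the kept cells that are not S100 cells (0.76, adjusted p = 0.17). Title numbers 1 to 6 of the dated set recur in both groups, and over all kept cells same-numbered libraries correlated by -0.04 to 0.21. The aGVHD libraries numbered 3 and 5 were most like the control library of the same number, and the others were not. Whether the numbers pair libraries cannot be told from these values. Gsr was 0.74 with the replicate block (limma adjusted p = 0.12) and 0.75 without it on the same libraries (adjusted p = 0.098). The 140 genes past the threshold became 4 in the G1 set, 51 in the dated set, 15 without doubtful cells, 2 in the kept cells that are not S100 cells, 3 in libraries of at least 20 cells, 606 with no low-count filter, 25 with the replicate block and 4 without it, and 43 to 193 without 1 library. Uncalled genes turned: Gpx1 to 0.0073 in the G1 set, 0.24 in the kept cells that are not S100 cells and 0.31 with no filter; Txn1 to -0.058 in the dated set, -0.11 in libraries of at least 20 cells, -0.038 with the replicate block and -0.0591 without it. Txnrd1 turned to 0.075 in the dated set, 0.058 in libraries of at least 20 cells, 0.065 with library totals, 0.025 with median-of-ratios factors, 0.37 with no filter, 0.050 without voom weights and 0.0093 with gene models kept, and ran from -0.085 to 0.127 without 1 library.

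In S100 cells Gsr passed with all libraries of at least 1 cell (0.85, limma adjusted p = 0.033), no filter (1.16, adjusted p = 0.049), no voom weights (0.82, adjusted p = 0.032) and gene models kept (0.81, adjusted p = 0.041), and ran from 0.69 to 0.86 without 1 library. The count of 0 genes became 2, 37, 6 and 1 under the same settings, 3 with the replicate block, 1 without it, and 0 to 1 without 1 library. With no filter Gpx1 turned to 0.023, Txnrd1 to 0.29 and Txn1 to 0.24. Txn1 also turned to 0.27 in the G1 set and 0.20 without doubtful cells, and ran from -0.32 to 0.10 without 1 library, and Sod2 turned to -0.12 in the G1 set. The difference in the share of cells with Gsr, 6.27 points at 500 transcripts, was 21.1 points at 1000 and 16.9 points unthinned.

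Between S100 and C1q cells, Prdx5 turned to -0.54 with at least 5 cells of each kind, and the 269 calls became 24 without doubtful cells and 2688 with no filter. Gsr gave no value there without doubtful cells or with C1q of 0 in S100 cells. Along granule genes, Gsr turned to -0.10 and Prdx5 to -0.054 with no filter, and with at least 1 granule transcript Txn1 turned to 0.14 and Sod2 to 0.083. The 146 calls there became 90 with median-of-ratios factors, 69 with a minimum of 1000 transcripts, 32 without voom weights and 42 with gene models kept, and leaving out either library left 1, with no test. The median of all genes moved to 0.21 without voom weights and -0.42 with no filter over all kept cells, and to 0.39 between kinds of cell with median-of-ratios factors. The cause of these changes was not tested. Low depth in control libraries (9180 named transcripts in the smallest) limits Cat, and few C1q or granule-positive cells limit those comparisons.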
